A study of Mus musculus with 6 samples.

Results

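The proteasome subunits and ubiquitin-conjugating enzymes of the embryonic mouse brain were taken as every probe set annotated to exactly 1 gene whose symbol is a proteasome name (Psma to Psmg followed by a number) or begins with Ube2 and a letter. This gave 181 probe sets of 80 genes, among 45037 probe sets of 18193 singly named genes on the array. Of them, 100 probe sets belonged to 47 proteasome genes and 81 to 33 Ube2 genes. Total RNA of whole brains at embryonic day E18.5, all on the C57/bl6 background, had been hybridised to 6 Affymetrix arrays, 3 from wild-type embryos and 3 from Foxf2 mutant embryos, with no further treatment named. The labels do not describe the Foxf2 allele, and do not say whether a brain was 1 embryo's or whether embryos shared a litter. P-values therefore measure the spread between these samples, which may be technical. In whole-brain RNA, fewer cells of a type and less RNA per cell cannot be told apart.

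Proteins marked for destruction carry chains of ubiquitin, which is passed from an E1 activating enzyme to an E2 conjugating enzyme and then, with an E3 ligase, to the target. The proteasome is a barrel of stacked alpha and beta rings, the 20S core, in which the beta subunits cut the unfolded protein. It is capped by the 19S particle, whose ATPases unfold the target and whose other subunits bind and remove the ubiquitin. In neurons this route removes misfolded and short-lived proteins, and E2 enzymes also build chains that signal in DNA repair, endoplasmic reticulum (ER) quality control and cell division.

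Values are MAS5 intensities, given below for wild-type replicates 1 to 3 and then mutant replicates 1 to 3. Differences are mutant minus wild type on the scale log2(intensity + 16) with their standard error (SE) from limma, and a probe set was called at an adjusted p under 0.05 over the 27022 probe sets bright enough to test. The median intensity per array was 23.1 to 23.6 in wild type and 24.3 to 25.5 in the mutants. Foxf2 itself was dim. Its brighter probe set read 18.6, 24.4 and 13.8 in wild type and 8.06, 3.31 and 7.57 in the mutants, and did not reach the brightness filter. The summed intensity of 10 neuron genes was 17290 to 17690 in wild type and 17660 to 18050 in the mutants. By the brightest probe set 5 of them were higher and 5 lower, from Map2 at -0.19 to Tbr1 at 0.36. The summed intensity of 5 endothelial genes was 669 to 697.9 against 494.1 to 569.6. Of these genes 3 were lower, among them the bright Cldn5 (-0.43) and Kdr (-0.41), and 2 higher, Cdh5 (0.29) and Pecam1 (0.02). The sum of 7 radial glia and astrocyte genes was 7768 to 8603 against 8710 to 9405, with 6 genes higher and 1, Nes, lower (-0.30). In that sum Vim was read from its brightest probe set, 1438118_x_at, which differed by 0.45. The nearly as bright Vim probe set 1450641_at differed by -0.03 with overlap. Nes was likewise read from its brightest probe set, while its dim 1418289_at was higher in all mutant arrays, by 0.58. Sums of 8 skeletal muscle genes were 1502 in mutant replicate 3 and at most 125.8 elsewhere, and sums of 7 pituitary genes were 1999 in wild-type replicate 3 and at most 296.6 elsewhere. The part of these markers in the results below was not tested.

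The proteasome and E2 genes differed little between mutant and wild-type brains. Of the 181 probe sets, 152 of 74 genes were bright enough to test, and 29 were not. Only 1 of the 152 passed the threshold, a probe set of Ube2d2a that rose, against 0.389% of all 27022 tested probe sets in either direction and 0.366% in the higher direction. None of the 79 proteasome probe sets passed in limma, where 7 were higher and 6 lower at an unadjusted p of 0.05. Over all members that looser level gave 16 higher and 16 lower, where the array as a whole gave 7.76% and 5.79%. The median difference was -0.014 over the 79 proteasome probe sets, -0.051 over the 73 Ube2 probe sets and -0.0065 over all tested. Differences below 0 made up 59.2% of the member probe sets and 51.4% of all. After centring each array on its median the split moved to 112 of 152 below 0, and to 63.8% of all.

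The mutant and wild-type arrays did not overlap in 44 of the 152 probe sets, 28.9%, against 20.2% of all tested. In 19 of them, 12.5%, every mutant array was higher, against 10.9% of all. In 25, 16.4%, every mutant array was lower, against 9.38%. Among the Ube2 probe sets 9 were higher and 16 lower without overlap, and among the proteasome probe sets 10 and 9. With each gene read from its brightest tested probe set, 29 of 43 proteasome genes and 20 of 31 Ube2 genes lay below 0, with medians of -0.053 and -0.08, against 51.7% of 12573 genes and a median of -0.0077. After quantile normalization these medians were -0.056 and -0.077, against -0.011 over all genes. Median centring moved all genes down, to a median of -0.062, and the families to -0.11 and -0.13.

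**Figure D1:**
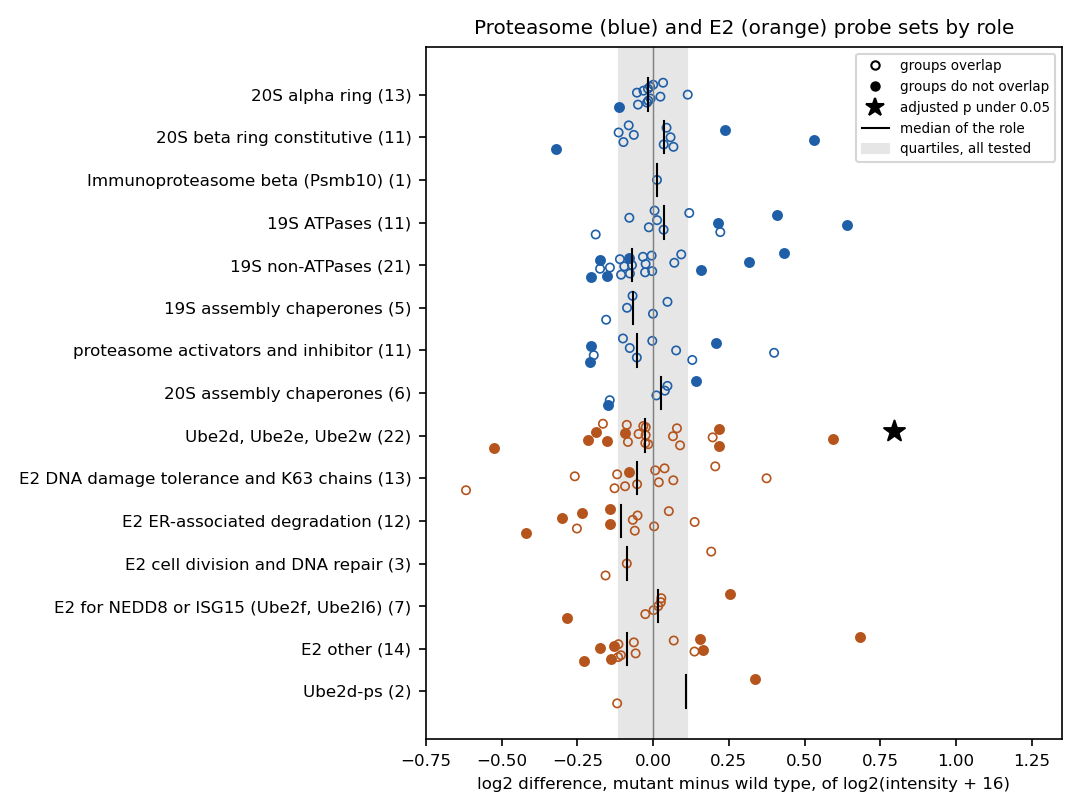
Each point is a tested probe set, placed by its log2 difference (mutant minus wild type, horizontal axis) in the row of its role, with the number of tested probe sets in brackets, proteasome roles in blue and E2 roles in orange. Filled points have groups that do not overlap, black lines are role medians and the grey band spans the quartiles of all tested probe sets. The 1 star, the Ube2d2a probe set at 0.80, is the only member past the threshold.

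Array by array, the family medians moved little from the wild-type mean. The proteasome genes lay at -0.0038, 0.006 and -0.017 on the wild-type arrays and at -0.037, -0.09 and -0.0036 on the mutant arrays. Mutant replicate 2 was the lowest for the proteasome, and mutant replicate 3 lay within the wild-type range. The Ube2 genes lay at -0.039, 0.011 and -0.0091 in wild type and at -0.037, -0.048 and -0.051 in the mutants. The first wild-type array was below the first mutant array, so these groups overlapped as well.

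**Figure D2:**
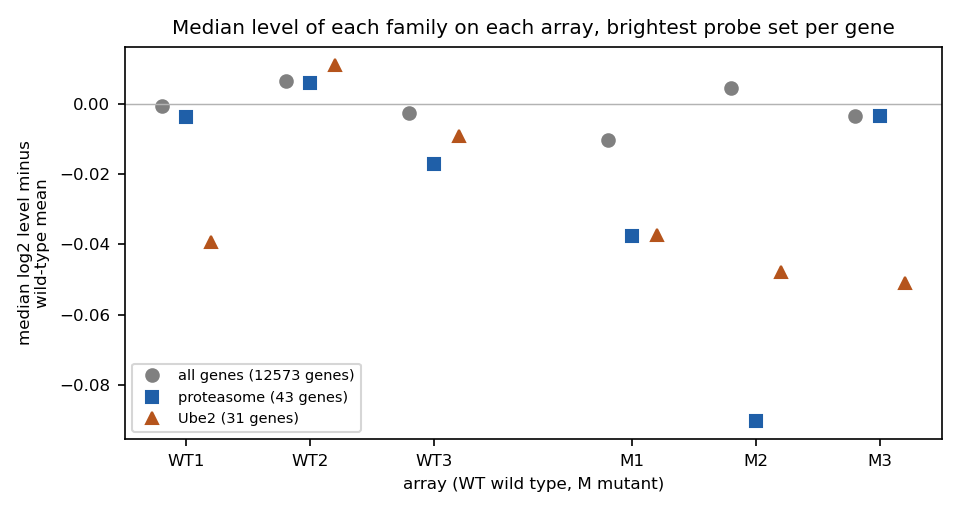
Median log2 level of all genes, of the 43 proteasome genes and of the 31 Ube2 genes on each array (WT1 to WT3 wild type, M1 to M3 mutant), each gene read from its brightest tested probe set and set against its own wild-type mean. The lowest point is the proteasome median of mutant replicate 2, at -0.09.

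Ube2d2a encodes a broadly acting E2 that works with many E3 ligases. Its probe set 1416476_a_at read 758, 648 and 797 in wild type and 1122, 1207 and 1556 in the mutants, with means of 735 ± 77.2 and 1295 ± 230 (SD, n = 3 each). Every mutant array was above every wild-type array, and mutant replicate 3 was the highest. The raw means stood at a ratio of 1.76, and the difference was 0.80 ± 0.12 (SE, limma adjusted p = 0.0475). The call was narrow. Over 15 alternatives the adjusted p ran from 0.015 to 0.179, and the call was lost in 10, among them the removal of any 1 of the 6 arrays, where it ran from 0.0609 to 0.179. The difference itself stayed between 0.66 and 0.89.

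The other 4 tested probe sets of Ube2d2a did not follow it. The brightest, 1448356_at, read 961, 1097 and 1123 in wild type and 1040, 1029 and 1052 in the mutants, a difference of -0.024 ± 0.07 (SE). The groups overlapped, and the mutant arrays all lay within the wild-type range. Probe sets 1416477_at and 1416475_at differed by 0.079 and -0.087, also with overlap. The dimmest, 1445885_at, went the other way without overlap, at 26.6, 36.0 and 36.7 in wild type and 21.9, 21.6 and 11.4 in the mutants, a difference of -0.53 (limma adjusted p = 0.234). Fitted directly, the change of 1416476_a_at exceeded that of the brightest probe set by 0.82 ± 0.12 (SE, limma adjusted p = 0.00706). That call held without each array in turn, with adjusted p of 0.0128 to 0.0287, except wild-type replicate 2, without which another probe set of the gene became the brightest. The suffix _a_at marks a probe set for several transcripts of 1 gene. Which transcripts each probe set reads was not analysed here.

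Among the alpha subunits, which form the outer rings of the core and its gate, all 13 tested probe sets of 7 genes lay between -0.11 and 0.11. The largest by their brightest probe set were Psma1 and Psma4. Psma1 read 1134, 1255 and 1219 in wild type and 1312, 1145 and 1470 in the mutants, a difference of 0.11 ± 0.091 (SE) with overlapping groups. Psma4 read 1274, 1199 and 1179 in wild type and 1145, 1063 and 1164 in the mutants, a difference of -0.11 ± 0.063 (SE, limma adjusted p = 0.468). The mutant arrays of Psma4 were all below the wild-type arrays, though the nearest lay close together, and it was the only alpha probe set without overlap. Psma8, the alpha subunit of testis, was too dim to test.

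Of the beta subunits of the constitutive core, 11 probe sets of 7 genes were tested, 2 higher and 1 lower without overlap, 18.2% and 9.09% against 10.9% and 9.38% of all tested. Psmb2, a beta subunit without a catalytic site, read 469.5, 452 and 486 in wild type and 377, 377 and 363.5 in the mutants. The groups lay far apart relative to their spread (469 ± 16.8 against 372.5 ± 7.84, SD, n = 3 each). The difference of -0.32 ± 0.063 (SE) did not pass the threshold (limma adjusted p = 0.0803, from 0.0649 to 0.278 over the alternatives), and the gene had no second probe set. Psmb6, the subunit with caspase-like activity, differed by -0.098 with overlap. Psmb5 and Psmb7, which carry the chymotrypsin-like and trypsin-like activities, differed by 0.044 and 0.058.

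Psmb4 was measured by probe sets that changed differently. The brighter, 1451205_at, read 1937, 2034 and 2109 in wild type and 1815, 1929 and 2078 in the mutants, a difference of -0.064 with overlap. The other, 1438984_x_at, read 1143, 1170 and 1259 against 1392, 1311 and 1519, a difference of 0.24 without overlap (limma adjusted p = 0.207). The change of the second exceeded that of the first by 0.30 ± 0.067 (SE, limma adjusted p = 0.0344). That call was lost without any 1 array other than mutant replicate 2, the adjusted p then reaching 0.119. The suffix _x_at marks probes that may also match other transcripts. Over the whole array 28.9% of tested _x_at probe sets were higher in all mutant arrays, against 9.32% of plain _at probe sets. A dim probe set of Psmb1, 1420053_at, at most 19.7 in wild type and at least 23.3 in the mutants, was also higher without overlap (0.53, limma adjusted p = 0.2), while the bright probe set of that gene differed by -0.081.

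The immunoproteasome replaces the catalytic beta subunits in cells exposed to interferon. Its genes Psmb8 and Psmb9 were too dim to test, at intensities of 12.4 or less and 16.4 or less on every array, as was the thymus subunit Psmb11. Psmb10 read 151, 140.5 and 117 in wild type and 114, 139 and 161 in the mutants, a difference of 0.013 ± 0.13 (SE) with overlap. Of the interferon and antigen presentation genes outside the proteasome, all 8 tested were above 0 by their brightest probe set, under each scaling run. Their median was 0.22 as deposited, and 0 of them passed the threshold in limma. At an unadjusted limma p of 0.05, 2 of the 8 were higher, as were 942 of all 12573 genes. H2-K1, a class I antigen-presenting molecule, differed by 0.63 in its brightest probe set, an _x_at one, and by 0.019 with overlap in its other tested probe set. The interferon-induced Ifit3 differed by 0.43. Over all 13 tested probe sets of these genes, 12 were above 0. Without overlap 3 were higher and 1 lower, 23.1% and 7.69% against 10.9% and 9.38% of all tested. The lower one belonged to H2-D1, another class I gene, at -0.17, while the brightest probe set of that gene differed by 0.11 with overlap.

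The 19S ATPases form the ring that unfolds and feeds the target. Of 11 tested probe sets of 6 genes, 3 were higher and 0 lower without overlap, 27.3% against 10.9% of all tested in the higher direction. The median was 0.035, but -0.02 after median centring. By the brightest probe set 1 of the 6 genes was higher without overlap, 16.7% against 10.9% of all genes. Of the 6 genes 3 lay below 0, 50% against 51.7%. The largest of these were Psmc2 and Psmc5. In its brightest probe set, 1435859_x_at, Psmc2 read 1037, 1268 and 1199 in wild type and 1279, 1300 and 1490 in the mutants. The difference was 0.21 ± 0.09 (SE, limma adjusted p = 0.341). The lowest mutant array lay only just above the highest wild-type array. The nearly as bright 1426611_at and the dim 1443307_at of this gene differed by 0.12 and 0.22, both with overlap. Psmc5 read 729, 746 and 675 against 649, 542 and 696, a difference of -0.19 with overlap.

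Psmc6, another ATPase of the ring, had the largest difference of any proteasome gene, but only in part of its probe sets. Its promoter is shown because the gene led the proteasome list, together with that of Psmd6, described below. Each is 250 bases before to 50 after the start in RefSeq, build GRCm38.p6. Capitals mark TGACNNNGC, the core of the antioxidant response element that the proteasome regulator Nfe2l1 and its relative Nfe2l2 bind, searched on both strands.
Psmc6, chr14:45329574-45329873, plus strand: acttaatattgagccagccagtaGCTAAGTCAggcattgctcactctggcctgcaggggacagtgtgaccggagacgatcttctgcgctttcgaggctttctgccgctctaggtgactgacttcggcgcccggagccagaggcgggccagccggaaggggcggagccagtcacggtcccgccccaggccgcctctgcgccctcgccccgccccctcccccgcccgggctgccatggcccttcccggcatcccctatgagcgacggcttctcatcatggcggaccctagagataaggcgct
Psmd6, chr14:14120896-14121195, minus strand: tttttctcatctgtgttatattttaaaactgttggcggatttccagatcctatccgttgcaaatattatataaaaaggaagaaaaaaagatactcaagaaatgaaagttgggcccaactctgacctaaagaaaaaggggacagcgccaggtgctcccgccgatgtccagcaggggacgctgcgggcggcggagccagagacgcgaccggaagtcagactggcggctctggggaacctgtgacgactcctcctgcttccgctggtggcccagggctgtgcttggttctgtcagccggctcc
The Psmc6 window held 1 match, on the opposite strand, 227 bases before the start, and the Psmd6 window held 0. The motif was in 6 of 39 proteasome windows, 15.4%, in 5 of 27 Ube2 windows, and in 12.5% of the 27025 windows of the table. The shares were close, and a match is not a binding site. CCAAT, also on both strands, was in 35.9%, 25.9% and 37.9% of the same windows. The regulator Nfe2l1 itself read 193, 157 and 182 in wild type and 166, 162 and 130 in the mutants, a difference of -0.20 with overlap.

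Probe set 1417769_at of Psmc6 read 60.4, 62.6 and 81.2 in wild type and 112, 114 and 117 in the mutants. The mutant arrays lay close together and all above wild type. The difference of 0.64 ± 0.11 (SE) missed the threshold (limma adjusted p = 0.0597, from 0.0344 to 0.229 over the alternatives). Probe set 1417770_s_at read 383, 452 and 487 against 567, 579 and 617, a difference of 0.41 (limma adjusted p = 0.105), again without overlap. The brightest, 1417771_a_at, read 918, 958 and 960 against 950, 916 and 980. It showed no such step, with overlapping groups and a difference of 0.0048 ± 0.058 (SE). Against it, the other probe sets changed more by 0.64 ± 0.13 (limma adjusted p = 0.0208) and by 0.40 ± 0.09 (limma adjusted p = 0.033). The first of these calls was lost without wild-type replicate 1 or 2 or mutant replicate 2 or 3, and the second without any array except wild-type replicate 3, with adjusted p up to 0.0795 and 0.116.

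The 19S subunits without ATPase activity bind ubiquitin or hold the lid together. By their brightest probe set 10 of 11 genes lay below 0, against 51.7% of all genes, with a median of -0.08. It was again 10 of 11 after median centring and after quantile normalization, where 64.7% and 52.8% of all genes lay below 0. Of these genes 3 were lower and 0 higher without overlap, where all genes gave 10% and 10.9%. Over all 21 tested probe sets the picture was less one-sided, with 5 above 0. Without overlap 3 were higher and 4 lower, 14.3% and 19% against 10.9% and 9.38% of all tested. Psmd4, a ubiquitin receptor, read 800, 735 and 746 in wild type and 614, 721 and 683 in the mutants, in its brightest probe set, a difference of -0.17 ± 0.074 (SE, limma adjusted p = 0.349). Its other 2 tested probe sets overlapped, the bright 1425859_a_at at -0.005 and the dim 1451725_a_at at -0.025. Psmd1, a scaffold of the base, read 910, 846 and 815 against 795, 735 and 777, a difference of -0.15 ± 0.066 (SE, limma adjusted p = 0.356). Neither of these probe sets had overlapping groups, though in both the nearest arrays of the groups lay close together. The deubiquitinase Psmd14 differed by -0.07 with overlap.

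Psmd6, a lid subunit, went both ways. Its brightest probe set, 1423697_at, read 1275, 1413 and 1316 in wild type and 1309, 1281 and 1317 in the mutants, a difference of -0.034. The other, 1423696_a_at, read 909, 965 and 763 against 1144, 1088 and 1334, a difference of 0.43 ± 0.1 (SE, limma adjusted p = 0.123). Only the second separated the groups. The changes differed by 0.46 ± 0.094 (SE, limma adjusted p = 0.0222), a call lost without wild-type replicate 2 or 3 or mutant replicate 3, where the adjusted p rose to as much as 0.0912.

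Psmd11, another lid subunit, had 5 tested probe sets. The brightest, 1437080_s_at, differed by -0.003, with overlap. Probe set 1429370_a_at read 620, 590 and 596 in wild type and 503, 527 and 530 in the mutants, a difference of -0.21 ± 0.06 (SE, limma adjusted p = 0.191). Probe set 1456059_at read 186, 196 and 181 against 205, 213 and 216, a difference of 0.16. The dim 1456104_at was also higher in all mutant arrays, by 0.32. So 1 probe set was lower and 2 were higher without overlap, and none of the 5 passed the threshold.

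**Figure D3:**
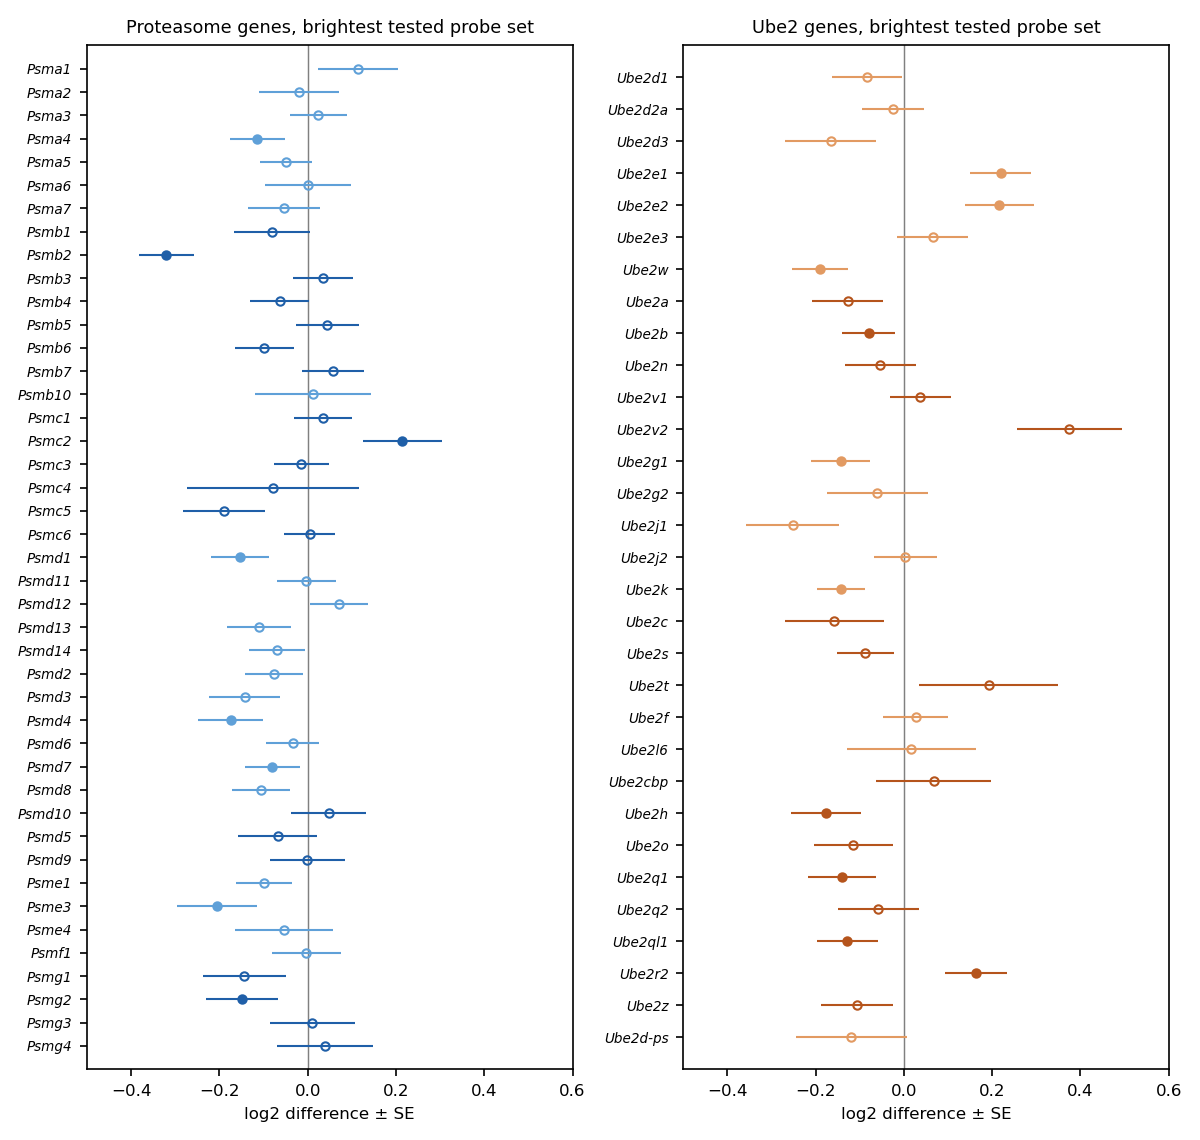
Log2 difference ± SE (mutant minus wild type, horizontal axis) of the brightest tested probe set of each of the 43 proteasome genes and 31 Ube2 genes, in the order of their roles, with shades alternating between roles. Filled points have groups that do not overlap. Psmb2 at -0.32 and Ube2v2 at 0.37 lie farthest from 0, and neither passed the threshold.

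Chaperones that build the particle differed little. Of the 19S chaperones, Psmd10 (gankyrin) read 206, 202 and 211 in wild type and 199.6, 238 and 205 in the mutants, a difference of 0.047, and Psmd5 read 401, 345 and 316 against 346, 330 and 331, a difference of -0.068. Both overlapped. Of the 20S chaperones, Psmg1 read 364, 332 and 326 against 319, 267 and 338, a difference of -0.14 with overlap. Its partner Psmg2 read 326, 325 and 345 against 268, 305 and 322, a difference of -0.15 without overlap (limma adjusted p = 0.465), while its other tested probe set differed by 0.047. Of 6 tested probe sets of the 20S chaperones, 1 was higher and 1 lower without overlap, 16.7% each, against 10.9% and 9.38% of all tested. The higher was the dim 1430572_at of Psmg3, at 0.14, while the brightest probe set of that gene differed by 0.011 with overlap.

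The 3 activator genes and the inhibitor Psmf1 were all below 0 by their brightest probe set, Psmf1 at -0.0027, and 3 of these 4 genes after quantile normalization. Over all 11 of their tested probe sets, 4 were above 0. Without overlap 1 was higher and 2 were lower, 9.09% and 18.2% against 10.9% and 9.38% of all tested. Psme3, a nuclear activator, read 168, 151 and 146 in wild type and 144, 129.5 and 124 in the mutants, a difference of -0.21 ± 0.09 (SE, limma adjusted p = 0.366). The groups did not overlap, but its other tested probe set differed by 0.13. Psme1, a subunit of the interferon-induced activator, read 854, 778 and 801 against 789, 727 and 751, a difference of -0.0995 with overlap. The probe set of its partner Psme2 carries a second gene name and was not a member. It read 386, 407 and 386 against 337, 339 and 357, a difference of -0.18 without overlap (limma adjusted p = 0.268).

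Among the E2 enzymes, the group that works with many E3 ligases (Ube2d, Ube2e and Ube2w) held the Ube2d2a probe set that passed the threshold, and of 22 tested probe sets 4 were higher and 5 lower without overlap, 18.2% and 22.7% against 10.9% and 9.38% of all tested. The close relatives Ube2e1 and Ube2e2 were higher. Ube2e1 read 1047, 1147 and 1206 in wild type and 1266, 1313 and 1382 in the mutants, a difference of 0.22 ± 0.069 (SE, limma adjusted p = 0.227). Ube2e2 read 337, 377 and 388 against 401, 454 and 433, a difference of 0.22 ± 0.078 (SE, limma adjusted p = 0.28). In both genes all mutant arrays were above all wild-type arrays, without passing the threshold, and a dim second probe set of Ube2e1 differed by -0.048. Ube2e3 differed by 0.066, with overlap.

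Ube2d3, a close relative of Ube2d2a, was measured by 7 tested probe sets, all below 0. Of these, 3 did not overlap. The widest gap was in 1450859_s_at, at 644, 634 and 617 in wild type and 548, 531 and 545.5 in the mutants, a difference of -0.22 ± 0.058 (SE, limma adjusted p = 0.16). Probe set 1423112_at differed by -0.15 and 1423113_a_at by -0.093, and the brightest, 1455479_a_at, by -0.17 with overlap. The tested probe sets of 1 gene share their RNA, so they are no replicates of each other. Probe sets named Ube2d-ps, a pseudogene of this family, differed by -0.12 and 0.34 at intensities of at most 43.3, and whether they also read the parent genes was not tested.

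Ube2w, an E2 that attaches ubiquitin to the amino terminus of proteins, had probe sets in opposite directions. The brightest, 1426398_at, read 524, 507 and 479.5 in wild type and 430, 449 and 439.5 in the mutants, a difference of -0.19 ± 0.064 (SE, limma adjusted p = 0.247). The dimmer 1452054_at read 68.9, 50.2 and 68.6 against 97.3, 108 and 101, a difference of 0.60 ± 0.12 (SE, limma adjusted p = 0.0846). Each separated the groups, one downward and one upward. The changes differed by 0.78 ± 0.14 (SE, limma adjusted p = 0.013), a call lost without wild-type replicate 2 or mutant replicate 2, where the adjusted p reached at most 0.0502. The dim 1457544_at and 1443188_at of this gene differed by 0.20 and -0.026, both with overlap.

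The E2 enzymes of DNA damage tolerance and of signalling chains gave 13 tested probe sets, 0 higher and 1 lower without overlap, 7.69% against 9.38% of all tested in the lower direction. Ube2v2, an inactive partner that lets Ube2n build such chains, read 760, 894 and 814 in wild type and 873, 1215 and 1151 in the mutants by its brightest probe set, 1417983_a_at. The difference was 0.37 ± 0.12 (SE, limma adjusted p = 0.229), and mutant replicate 1 lay inside the wild-type range. Its probe set 1417984_at read 261, 265 and 229 against 172, 238 and 216.5, a difference of -0.26, also with overlap. The changes of these probe sets differed by -0.63 ± 0.1 (SE, limma adjusted p = 0.00953), and this held without each array in turn, with adjusted p of 0.0125 to 0.0442. The remaining tested probe set of Ube2v2, 1429131_at, differed by 0.21 with overlap, the direction of the brightest. Ube2a, which marks the replication clamp, read 450, 498 and 478 against 425, 401 and 479, a difference of -0.13 with overlap. Ube2n itself differed by -0.053. A probe set of Ube2b, 1439477_at, had the lowest difference of all members, -0.62 ± 0.4 (SE), which lay with mutant replicate 3 at 27.1 against 107 to 145 on the other 5 arrays.

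The E2 enzymes of ER-associated degradation, which clear misfolded proteins from the ER, lay mostly below 0. Of 12 tested probe sets of 5 genes 9 were below 0, with a median of -0.10, and 5 were lower and 0 higher without overlap, 41.7% against 9.38% of all tested. None passed the threshold in limma, and 5 of the 12 were lower at an unadjusted p of 0.05, against 5.79% of all tested. Those of Ube2g1, Ube2g2 and Ube2j2 were not the brightest probe set of their gene. By the brightest probe set 2 of the 5 genes were lower without overlap, 40% against 10% of all genes. The brightest probe sets of Ube2g2 and Ube2j2 overlapped, at -0.06 and 0.0032. Only their dimmer probe sets were lower without overlap, at -0.30 and -0.42. Ube2g1 was lower without overlap in both of its probe sets. The brighter, 1415688_at, read 939, 878 and 883 in wild type and 878, 787 and 778 in the mutants, a difference of -0.14. The other, 1455094_s_at, read 162, 141 and 158 against 134, 132 and 119.7, a difference of -0.23 (limma adjusted p = 0.296). In the first the nearest arrays of the groups were almost level. Ube2j1, anchored in the ER membrane, read 326, 317 and 267 against 246, 285 and 226, a difference of -0.25 with overlap. The brightest probe set of Ube2k read 1162, 1190 and 1122 against 1033, 1060 and 1050, a difference of -0.14 ± 0.055 (SE, limma adjusted p = 0.308), without overlap. Its other 3 tested probe sets overlapped, at -0.051 to 0.14.

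The E2 enzymes of cell division gave 3 tested probe sets, none without overlap. Ube2c, which drives exit from mitosis, read 273.5, 227 and 235 in wild type and 256, 205 and 196 in the mutants, a difference of -0.16 ± 0.11 (SE). Its partner Ube2s, which extends the chain, differed by -0.087. Ube2t, of the Fanconi anaemia repair pathway, read 31.6, 46.2 and 30.8 against 42.2, 36.7 and 51.4, a difference of 0.19. Of 12 genes of dividing progenitors 0 passed the threshold in limma, 8 were below 0 by the brightest probe set, and their summed intensity was 3079 to 3190 in wild type and 2786 to 3259 in the mutants. The largest by that probe set were Ccna2 at -0.43, without overlap, and Mcm2 at 0.42, with overlap. The other tested probe sets did not follow, that of Ccna2 at -0.061 with overlap and that of Mcm2 at -0.26 without overlap.

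Ube2f passes the ubiquitin-like protein NEDD8, which switches on cullin ligases, and had 6 tested probe sets. The brightest, 1450275_x_at, differed by 0.027. Probe set 1451272_a_at read 231, 187 and 174 in wild type and 174, 148 and 154 in the mutants, a difference of -0.28 (limma adjusted p = 0.311), the nearest arrays of the groups lying almost level. Probe set 1432426_a_at read 114, 108 and 90.4 against 122, 135 and 124, a difference of 0.25 (limma adjusted p = 0.317). Both separated the groups, in opposite directions. The interferon-induced Ube2l6, the E2 for ISG15, was dim, at 15.8, 14.3 and 20.1 against 21.4, 17.1 and 13.0, a difference of 0.017 with overlap.

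Of the remaining E2 genes, Ube2r2, a relative of the cullin ligase partner Cdc34, was higher without overlap in both tested probe sets. The brighter, 1415768_a_at, read 297, 265 and 286 in wild type and 322, 312.5 and 320.2 in the mutants, a difference of 0.16 ± 0.07 (SE, limma adjusted p = 0.351). The other, 1444460_at, read 50.3, 28.7 and 40.1 against 78.1, 64.3 and 75.3, a difference of 0.68 ± 0.16 (SE, limma adjusted p = 0.111). The change was larger in the dimmer probe set, though that difference did not pass the threshold either (limma adjusted p = 0.0756). Ube2q1 was lower without overlap in both. Its brighter probe set read 274, 243.5 and 236 against 225, 225 and 227, a difference of -0.14. The other read 224, 222 and 218 against 174, 196 and 191, a difference of -0.23 ± 0.075 (SE, limma adjusted p = 0.242). Ube2h was split. Its brightest probe set read 488, 471 and 491.5 against 424, 471 and 387, with the middle mutant array just under the wild-type minimum, a difference of -0.18. Its probe set 1418631_at read 189, 179 and 195 against 201, 201 and 230.1, a difference of 0.15. Ube2u and Ube2d2b, the latter of testis, were too dim to test.

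The members can also be read by how well the probe sets of a gene held together, since 43 of the genes had at least a pair of tested probe sets. In 6 of them (Psmc6, Psmd11, Ube2d3, Ube2g1, Ube2q1 and Ube2r2), 2 or more probe sets left the groups without overlap in 1 direction, against 7.18% of 6199 genes. In 5 of them (Psmd11, Ube2d2a, Ube2f, Ube2h and Ube2w), probe sets did so in opposite directions, against 4.08%. Of 78 pairs of a probe set with the brightest of its gene, 43 had the same sign, 55.1% against 54.2% of 10647 pairs. So the sign of 1 probe set said little about the sign of another, in these genes as over the array. The median size of the difference between pairs was 0.15 in both.

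The test of a difference in change passed in 7 of the 78 pairs, 8.97%, against 3.48% of all pairs. It passed in 6 of the 43 genes, 14%, against 5.31% of 6199 genes. These were Psmb4, Psmc6, Psmd6, Ube2d2a, Ube2v2 and Ube2w, whose values are given above. In 6 of the 7 pairs the dimmer probe set changed upward relative to the brightest, and in Ube2v2 downward. Over all genes it changed upward in 214 of the 371 called pairs. Both Psmc6 pairs share the same brightest probe set, so they are not independent. Without a variance trend in limma 0 of the 78 pairs and 50 of all pairs passed. Without wild-type replicate 2 the test passed in 2 of the genes, and without mutant replicate 3 in 3.

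**Figure D4:**
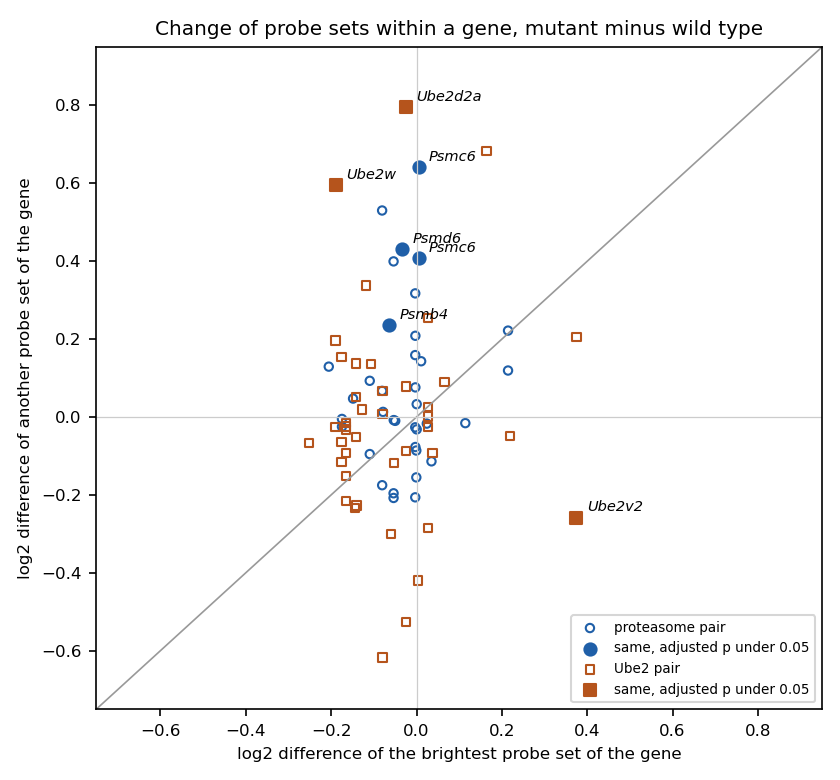
Each point is a probe set, placed by the log2 difference of the brightest probe set of its gene (horizontal axis) and by its own (vertical axis), mutant minus wild type, with proteasome pairs as circles and Ube2 pairs as squares. Points on the diagonal changed alike. The 7 filled, named points differ from it past the threshold, 6 above it and 1 below.

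**Figure D5:**
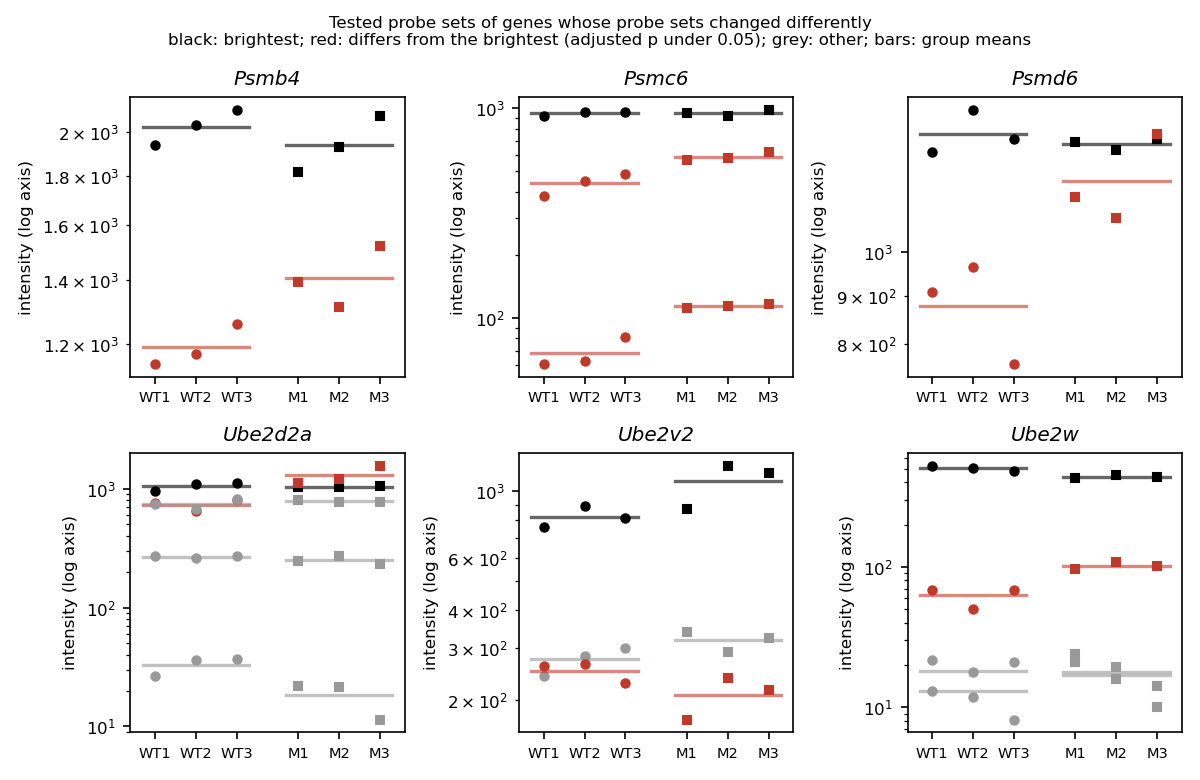
MAS5 intensity (log axis) of every tested probe set of the 6 genes with a called pair, on each wild-type array (WT1 to WT3, circles) and mutant array (M1 to M3, squares), with bars at group means. Black is the brightest probe set, red one whose change differs from it and grey any other. In Psmc6 the black points stay near 945 and 949 on average while both red sets step up in the mutants.

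Partners of these genes outside the Psm and Ube2 names gave 3 probe sets past the threshold, each from a gene whose other probe sets did not pass. These were 1 of 16 tested probe sets of E1 enzymes, 1 of 11 of other E2 genes and 1 of 24 of proteasome-bound factors and regulators, with 0 of 17 of shuttles and the segregase, against 0.389% of all tested. Uba3 is the catalytic subunit of the E1 for NEDD8, the enzyme that loads Ube2f. Its probe set 1435164_s_at read 375, 346.5 and 360.1 in wild type and 507, 516 and 561 in the mutants, and rose by 0.53 ± 0.068 (SE, limma adjusted p = 0.0227). Its brightest probe set differed by -0.12, with overlap, and the remaining probe set by 0.15. The other subunit of that E1, Nae1, read 728, 786 and 748 against 975, 925 and 952 in its only probe set, well separated. The difference of 0.33 ± 0.059 (SE) missed the threshold (limma adjusted p = 0.062).

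Usp14, a deubiquitinase docked on the 19S particle, rose in the _x_at probe set 1437714_x_at, from 94.1, 92.6 and 105 to 179.6, 189 and 178, by 0.81 ± 0.084 (SE, limma adjusted p = 0.0155). Its other 3 tested probe sets differed by -0.033, 0.023 and 0.084. Birc6, a giant E2 that also blocks cell death, rose in its brightest probe set, 1419562_at, from 158, 197 and 185 to 286, 328 and 347, by 0.78 ± 0.1 (SE, limma adjusted p = 0.0227). Its 3 other tested probe sets were dim and differed by 0.31, -0.25 and -0.22, so the change rests on that 1 probe set. Of the shuttles and the segregase that carry targets to the proteasome, 7 of 9 genes were below 0 by their brightest probe set and 0 passed the threshold in limma. At an unadjusted p of 0.05, 1 was higher and 2 lower by that probe set. Over all 17 it was 1 and 3, against 7.76% and 5.79% of all tested. The largest by the brightest probe set were the shuttle Ubqln2 at 0.33 (limma adjusted p = 0.0943) and the chaperone Bag6 at -0.24. The dimmer of the 2 probe sets of the segregase Vcp differed by -0.59 ± 0.19 (SE, limma adjusted p = 0.221) with overlap, the brighter by -0.088, also with overlap. The dimmer tested probe set of Ubqln2 differed by -0.12 with overlap. Of 11 proteasome-bound factors and regulators, 8 were below 0 by their brightest probe set. Without overlap 2 were higher and 2 lower, 18.2% each, against 10.9% and 10% of all genes. Lowest were Nfe2l1, given above, and the ligase Ubr4 at -0.17, the latter without overlap. On the higher side, Sem1, a small 19S subunit, read 796.5, 903 and 914.5 in wild type and 963, 991.5 and 962 in the mutants, a difference of 0.16 ± 0.068 (SE, limma adjusted p = 0.357). Its other probe set differed by 0.24 ± 0.064 (SE, limma adjusted p = 0.167), and both separated the groups. Nfe2l2 was also higher without overlap, by 0.16.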

How the data were processed

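Per the submitters' processing notes the deposited intensities, linear in scale, came from MAS5, whose version is not given in the sources used here. The authors' intensity values were already scaled (after removal of the 2% lowest and highest probe sets every array had a mean of 100) and were not normalized again, which hides any change in total RNA. The platform annotation gave 34945 of 45037 probe sets 1 symbol, 64 controls being left out. All 80 member genes matched RefSeq, assembly GRCm38.p6, which also gave the promoters.

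Analysis used limma 3.58.1 in R 4.3.3 on log2(intensity + 16), by lmFit and by eBayes with a variance trend over all 45037 probe sets, two-sided. Benjamini-Hochberg adjustment covered 27022 probe sets at or above the 40th percentile of mean level, an intensity of about 13.2. The pair test fitted the per-array log2 difference between each tested probe set and the brightest of its gene, over 10647 pairs. The scripts were tested on simulated data. Precision is limited by 3 arrays a group.

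The members and lists were chosen with earlier results of these data known. Named genes are every member past the threshold, the 2 largest of each role list by the brightest probe set, genes with 2 or more probe sets without overlap in the same or in opposite directions, called pairs and the immunoproteasome. Psmb1, Psmb5, Psmb7, Psmd14, Psmf1, Ube2b, Ube2g2, Ube2j2, Ube2k, Ube2n, Ube2s and Ube2e3 were added after their values were seen. In the lists of partner, interferon and dividing progenitor genes, the rule named those past the threshold, otherwise the 2 largest. Nae1, Sem1, Nfe2l1, Nfe2l2, Ubr4, Vcp and H2-D1 are given outside that rule. Alternatives varied the offset, filter, normalization, trend, array weights, replicate block, probe set types and arrays. Probe sets of Ube2l3 carry several names and were not members.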

Additional observations from a re-analysis of the deposited data

How the results depend on the processing

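With 3 arrays a group, limma calls near the threshold moved with most choices. The 1 member call became 2 with an offset of 1, the 60th percentile filter, the replicate block or a variance prior from tested probe sets only (added after seeing the data), the second being Psmc6 1417769_at. It became 0 with an offset of 64, no filter, median centring, no variance trend, without _x_at and _s_at probe sets, with 1 probe set per gene, and without any 1 array (0 to 0). At an unadjusted limma p of 0.05, members were 16 higher and 16 lower, and without the trend 14 and 9. Over all probe sets 105 calls became 181 and 64 with offsets of 1 and 64, 52 without a filter, 167 with the 60th percentile filter, 56 with median centring, 0 without the trend (3497 at an unadjusted p of 0.05), 220 with the replicate block, 21 without _x_at and _s_at probe sets, 12 with 1 probe set per gene, 225 with the other prior, and 0 to 34 without 1 array. The 6 genes with a called pair became 0 without the trend and 2 to 5 without 1 array.

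The Ube2 median of -0.051 became -0.065 and -0.03 with offsets of 1 and 64, -0.064 with the 60th percentile filter, -0.11 with median centring, -0.08 with 1 probe set per gene and -0.059 to -0.032 without 1 array. The proteasome median of -0.014 became -0.068, -0.053 and -0.037 to -0.001 under the last 3. Of 64 single values, 55 kept their sign under every alternative run, and 9 near 0 did not. Under median centring these were Ube2l6 (-0.037), Psmc6 1417771_a_at (-0.049), Psmd10 (-0.0066), Psmb10 (-0.041) and Ube2f 1450275_x_at (-0.027), and under quantile normalization Ube2l6 (-0.053) and Psmc6 1417771_a_at (-0.0035). Without 1 array the differences ran from -0.075 to 0.11 for Ube2l6, -0.019 to 0.029 for Psmc6 1417771_a_at, -0.026 to 0.093 for Psmd10, -0.094 to 0.13 for Psmb10, -0.013 to 0.064 for Ube2f 1450275_x_at, -0.14 to 0.022 for Psmd5, -0.066 to 0.008 for Psmd6 1423697_at, -0.031 to 0.053 for Psmd11 1437080_s_at and -0.093 to 0.018 for Ube2d2a 1448356_at. The cause was not tested.

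The labels number replicates in both groups. Deviations of same-numbered arrays correlated at 0.186, 0.134 and 0.092, not all over 0.1, so the numbers were not used as pairs, although every array correlated best with its own number. Apart from the member count and the count of all calls above, the replicate block changed the side of the threshold for 1 single value, Psmc6 1417769_at.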
